A study of Mus musculus with 19 samples.

Results

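The genes described here are the 10 opioid and cannabinoid system genes Oprm1, Oprd1, Oprk1, Oprl1, Penk, Pdyn, Cnr1, Cnr2, Faah and Mgll, taken by symbol from a deposited table of 36682 genes. All 10 passed the filter on low counts, which kept 22778 genes. They were measured by bulk RNA sequencing in mouse dorsal root ganglia, which hold the cell bodies of the sensory neurons of the trunk and limbs. Lumbar ganglia (L3 to L5) ipsilateral to the operated knee were pooled, and 1 poly(A) library was made per numbered sample. The labels do not say in words that each number is a separate animal, and p-values measure the spread between these samples.

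All animals were male and homozygous for the MaFIA transgene (macrophage Fas-induced apoptosis), which lets the dimerizer AP20187 trigger cell death in cells that use the Csf1r promoter, macrophages and other myeloid cells among them. The controls carried the transgene too. A first factor was surgery: destabilization of the medial meniscus (DMM), a surgical model of knee osteoarthritis with treatment 8 weeks after the operation, or naive animals of matching age without surgery. The other factor was AP20187 or vehicle, injected into the peritoneum daily on 5 days. This gave DMM with AP20187 (n = 5, numbers 58 to 62), DMM with vehicle (n = 5, numbers 32, 33, 34, 63 and 64), naive with AP20187 (n = 4, numbers 1, 3, 4 and 5) and naive with vehicle (n = 5, numbers 1 to 5). Ages in weeks are not given in the sources used here.

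Opioid receptors and the cannabinoid receptor CB1 are Gi/o-coupled receptors of sensory neurons. When a ligand binds, they lower cyclic AMP, close calcium channels and open potassium channels, which reduces transmitter release and pain signalling. Their natural ligands are peptides cut from precursors such as proenkephalin and prodynorphin, and the lipids anandamide and 2-arachidonoylglycerol, which the enzymes FAAH and monoacylglycerol lipase break down. The second cannabinoid receptor, CB2, is known chiefly from immune cells.

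Libraries held 60984830 to 74691396 counts. The first principal component held 36.9% of the variance, and DMM vehicle 64 lay on it among the AP20187 libraries. That library also had the lowest pan-neuronal score of its group, 8.36 against 9.59 to 9.89, and the highest neutrophil score, 8.72 against 4.24 to 7.10. Its erythroid (10.03) and B cell (3.74) scores were the highest of its group too, the next being 8.91 and 2.57. The same held for its macrophage (5.70, next 5.10) and fibroblast (8.99, next 8.38) scores. In DMM with AP20187 the erythroid and B cell scores reached only 7.89 and -1.08, below DMM vehicle 64. A score is the mean log2 CPM of a marker list, and CPM are counts scaled to a common library size after TMM normalization. The second component held 9.22% and set the 4 naive AP20187 libraries apart, so that any batch and that group cannot be told apart. The 8 skeletal muscle markers summed to 1730 to 2643 CPM in those 4 libraries against 14.8 to 476 in naive with vehicle, where 3 of 8 rose. In DMM they summed to 18.3 to 154 CPM with AP20187 and 17.4 to 2130 with vehicle, and 2 of 8 fell. The r of the members with the muscle score lay between -0.45 (Pdyn) and 0.11 (Cnr1) over the 19 libraries, and the part of these markers in the naive values was not tested. The tissue label was checked against neuronal markers: none of the 12 pan-neuronal and 13 nociceptor markers was at 0 counts in any of the 19 libraries. Csf1r, whose promoter drives the transgene, averaged 69.1 CPM in the DMM AP20187 libraries, 70.0 in the DMM vehicle ones, and 69.4 and 50.9 CPM in naive. Of 10 macrophage markers, 0 fell, 1 rose in DMM and 3 rose in naive with AP20187. The groups are therefore named by their treatment. In bulk tissue, fewer cells of a type and less RNA per cell cannot be told apart.

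With AP20187 in DMM, 3 of the 10 genes passed the test: Mgll and Faah, the endocannabinoid-degrading enzymes, fell, and Cnr2, the gene of CB2, rose. Mgll and Faah were at a fold of 0.558 and 0.498 of vehicle, and Cnr2 was 2.87-fold higher. None of the 4 opioid receptor genes, Cnr1 or the precursors Penk and Pdyn passed. The test was edgeR's quasi-likelihood F test, with p adjusted over all genes tested (Benjamini-Hochberg) and a threshold of 0.05, and 23.8% of all genes passed in this comparison (11.3% higher and 12.4% lower). The share of the members, 3 of 10, was thus near that of all genes. Against DMM vehicle 63 and 64 alone, whose numbers follow on from those of the AP20187 samples, 0 of the 10 passed, and 1156 of all genes did, against 5410 in the full comparison. Whether the number series 32 to 34 and 58 to 64 are separate batches is not given in the sources used here, and its part in the DMM values was not tested. The median log2 fold change of the 10 genes was -0.98, against -0.10 for all genes tested, and 8 of the 10 values were negative. Unadjusted p was under 0.05 for 6 of them and for 37.3% of all genes. The same comparison in naive animals gave 0 of 10 genes past the threshold, where 11.2% of all genes passed, with a median of -0.77 against -0.07. There, 8 of 10 values were negative too, and 2 genes, Cnr2 and Mgll, had an unadjusted p under 0.05, as did 28.8% of all genes. DESeq2 called 1 of the 10 in naive, Cnr2, and 4356 of all genes, against 2548 by edgeR.

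**Figure D1:**
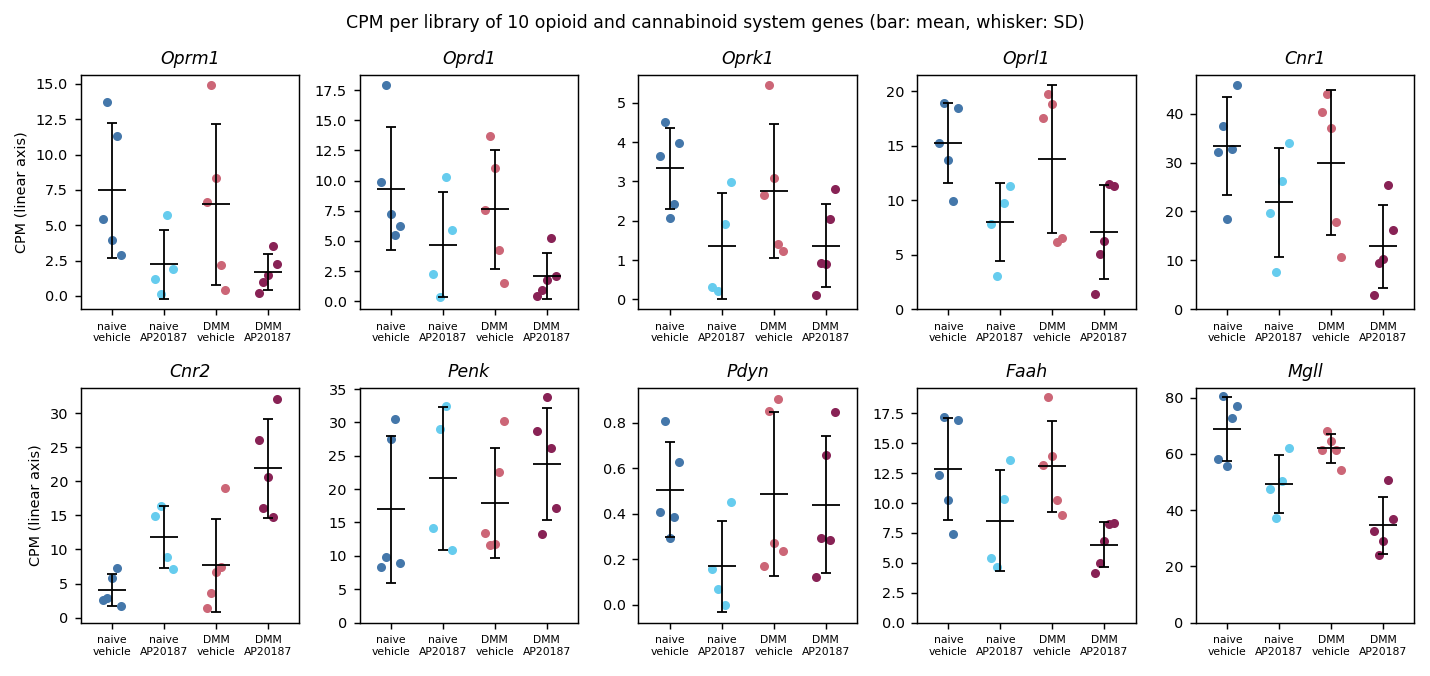
CPM per library (linear axes that differ between panels) of the 10 genes in the 4 groups; each point is 1 library, the bar is the mean and the whisker the SD. Mgll and Faah in DMM with AP20187 lie at 24.1 to 50.6 and 4.17 to 8.34 CPM, below all 5 DMM vehicle libraries, while the other 8 genes overlap between those groups.

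Mgll (ENSMUSG00000033174, chromosome 6, 88701394 to 88805342 on GRCm39) encodes monoacylglycerol lipase, the main enzyme that breaks down 2-arachidonoylglycerol. In DMM with AP20187 it was at 32.7, 24.1, 28.9, 50.6 and 36.8 CPM in samples 58 to 62. In DMM with vehicle it was at 61.3, 68.3, 64.7, 61.4 and 54.4 CPM in samples 32, 33, 34, 63 and 64. Every AP20187 library was below every vehicle library, and the vehicle libraries lay close together, with the highest 1.26 times the lowest. The log2 fold change was -0.84 (SE 0.18, edgeR adjusted p 0.00442). Mgll passed with each of the 10 libraries left out in turn (adjusted p 0.000799 to 0.0138). Against DMM vehicle 63 and 64 alone it was -0.72 and did not pass (adjusted p 0.0898). In naive animals Mgll was at 47.3, 37.2, 50.5 and 62.0 CPM with AP20187. With vehicle it was at 58.1, 80.7, 55.8, 72.7 and 77.2 CPM. The ranges overlapped through naive AP20187 5, and the value of -0.48 (SE 0.20, adjusted p 0.111) did not pass.

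Faah (ENSMUSG00000034171, chromosome 4, 115824342 to 115874924) encodes fatty acid amide hydrolase, which hydrolyses anandamide. DMM animals given AP20187 (58 to 62) had 4.17, 4.97, 6.79, 8.24 and 8.34 CPM. Those given vehicle had 13.2, 18.9, 13.9, 10.3 and 9.04 CPM (32, 33, 34, 63 and 64). Again the groups did not overlap, although DMM vehicle 64 at 9.04 CPM was close to DMM AP20187 62 at 8.34. The 2 groups did not overlap in 2 of the 10 members, both lower, where 12.9% of all genes tested did not overlap (4.18% with all AP20187 libraries lower). The log2 fold change was -1.01 (SE 0.32, adjusted p 0.0290). The call was lost in 6 of 10 fits that left out 1 library, namely DMM AP20187 58, 59 or 60, or DMM vehicle 32, 33 or 34 (adjusted p 0.0520 to 0.0858). Against DMM vehicle 63 and 64 alone the value was -0.55 (adjusted p 0.486). In naive animals Faah was at 5.43, 4.64, 10.3 and 13.6 CPM with AP20187 and at 12.3, 17.2, 10.3, 7.40 and 17.0 CPM with vehicle. Here naive AP20187 1 and 3 were low and the other two lay within the vehicle range, at a log2 value of -0.59 (SE 0.34, adjusted p 0.245).

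Cnr2 (ENSMUSG00000062585, chromosome 4, 135622705 to 135647518) encodes CB2, a Gi/o-coupled receptor found on leukocytes. Its CPM after AP20187 in DMM (58 to 62) were 26.1, 16.1, 20.6, 14.7 and 32.1. With vehicle they were 1.48, 3.55, 6.69, 7.48 and 19.03 (32, 33, 34, 63 and 64). The groups overlapped only through DMM vehicle 64, and that vehicle group spanned 12.9-fold. The log2 fold change was 1.52 (SE 0.52, adjusted p 0.0409). Without DMM vehicle 64 it was 2.19 (adjusted p 0.00286), and against DMM vehicle 63 and 64 alone it was 0.72 (adjusted p 0.503). The call was lost in 8 of 10 fits that left out 1 library, the exceptions being DMM AP20187 61 and DMM vehicle 64 (adjusted p 0.0522 to 0.1004 where lost). In naive animals Cnr2 was at 14.9, 16.4, 8.84 and 7.16 CPM with AP20187 and at 2.63, 2.89, 5.84, 7.26 and 1.71 CPM with vehicle. Only naive vehicle 4 reached above the lowest AP20187 library. The log2 fold change in naive, 1.54 (SE 0.54, adjusted p 0.0726), did not pass, and the difference between the responses in DMM and naive was -0.02 (SE 0.73, adjusted p 1.00 for the interaction, which 0.114% of all genes passed).

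Reference promoters of the 3 genes are shown because these genes passed the test in DMM. They are the 250 bases before an annotated start, from RefSeq on GRCm38.p6, a build other than that of the files, and for Mgll and Cnr2 the start with the lowest coordinate was taken. Windows were found for 8 of the 10 members. The bases after the start lay near the start of an annotated transcript for the Faah and Mgll windows shown. For Cnr2 they did not, so that its window is less sure to be a promoter. Capitals mark the GC box GGGCGG (either strand), the letters bound by Sp-family factors, in Faah and Mgll, and GAGGAA (either strand), a PU.1-type ETS core, in Cnr2; a sequence without capitals holds no match.
Faah, chr4:116017925-116018174, minus strand: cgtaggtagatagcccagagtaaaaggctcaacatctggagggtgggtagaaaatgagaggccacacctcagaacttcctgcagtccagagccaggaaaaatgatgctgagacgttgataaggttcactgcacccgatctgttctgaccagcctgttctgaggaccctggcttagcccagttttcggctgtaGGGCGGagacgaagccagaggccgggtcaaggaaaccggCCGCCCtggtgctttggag
Mgll, chr6:88724162-88724411, plus strand: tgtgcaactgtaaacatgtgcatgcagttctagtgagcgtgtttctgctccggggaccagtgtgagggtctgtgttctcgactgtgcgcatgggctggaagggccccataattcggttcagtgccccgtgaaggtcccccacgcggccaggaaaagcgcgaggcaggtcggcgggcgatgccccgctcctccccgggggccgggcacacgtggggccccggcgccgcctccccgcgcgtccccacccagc
Cnr2, chr4:135894939-135895188, plus strand: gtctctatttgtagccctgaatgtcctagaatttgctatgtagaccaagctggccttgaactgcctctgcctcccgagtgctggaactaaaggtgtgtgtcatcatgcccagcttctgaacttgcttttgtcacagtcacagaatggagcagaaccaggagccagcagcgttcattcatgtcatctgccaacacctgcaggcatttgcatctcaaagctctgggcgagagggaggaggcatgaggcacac
The Faah window held 2 GC boxes, the Mgll window shown held 0 and the Cnr2 window held 0 GAGGAA. Over all starts listed, the 8 members had 17 windows, and GGGCGG was present in 4 of them (1 each of Cnr1, Faah, Mgll and Oprd1), or 23.5%, against 32.7% of all 32851 windows of the same length. The other motifs searched on both strands were CCAAT (5 of 17 member windows, 33.8% of all windows), TATAAA (1 of 17, 12.4%), TGACGTCA (0 of 17, 1.55%), GAGGAA (0 of 17, 23.3%) and TTGCNNAA (1 of 17, 9.56%). These counts describe letters only.

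**Figure D2:**
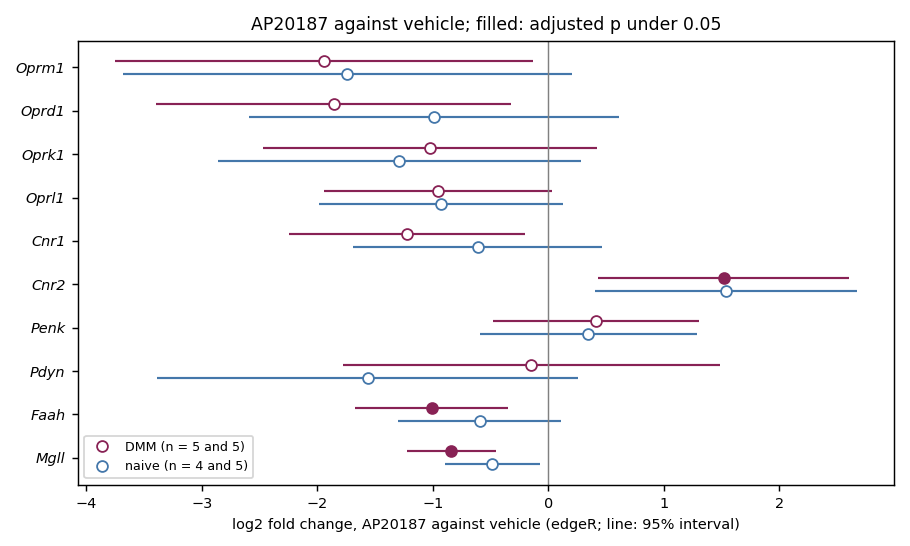
Log2 fold change with AP20187 against vehicle of the 10 genes (edgeR, horizontal axis) in DMM (n = 5 and 5) and naive (n = 4 and 5) animals; lines are 95% intervals and filled points have an adjusted p under 0.05. Cnr2, Faah and Mgll are filled in DMM (1.52, -1.01 and -0.84), none is filled in naive, and the intervals of Oprm1 and Pdyn are wide.

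The opioid receptor genes had lower means with AP20187 in both DMM and naive, but none passed. Oprm1 (ENSMUSG00000000766, chromosome 10, 6708593 to 6988198) encodes the mu receptor, the target of morphine. In DMM, samples 58 to 62 with AP20187 had 0.227, 0.994, 1.45, 3.50 and 2.29 CPM. The vehicle samples 32, 33, 34, 63 and 64 had 6.63, 14.9, 8.35, 2.21 and 0.412 CPM. DMM vehicle 63 and 64 lay inside the AP20187 range and the others of that group above it, and the vehicle group spanned 36.2-fold. Its log2 fold change was -1.94 (SE 0.86, adjusted p 0.108), and it was 0.42 against DMM vehicle 63 and 64 alone. In naive, Oprm1 was at 1.21, 0.135, 5.70 and 1.90 CPM with AP20187 and at 5.46, 13.7, 3.95, 11.3 and 2.90 CPM with vehicle. Naive AP20187 3 was the lowest of all 19 libraries, and the value of -1.74 (SE 0.93, adjusted p 0.220) did not pass. Without naive AP20187 4 it was -2.79.

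Oprd1 (ENSMUSG00000050511, chromosome 4, 131838037 to 131871797), the delta receptor gene, ranged from 0.455 to 5.26 CPM in DMM with AP20187 and from 1.55 to 13.7 with vehicle. Its log2 fold change was -1.86 (SE 0.73, adjusted p 0.0706), and it was -0.43 against DMM vehicle 63 and 64 alone. In naive it was -0.99 (SE 0.77, adjusted p 0.395), with 0.372 to 10.3 CPM against 5.45 to 17.9. The Oprd1 value passed in DMM without DMM AP20187 61 (-2.54, adjusted p 0.0213), and in naive it was -1.71 without naive AP20187 4. Oprk1 (ENSMUSG00000025905, chromosome 1, 5658689 to 5676354), the kappa receptor gene, ranged from 0.121 to 2.80 CPM in DMM with AP20187 and from 1.22 to 5.45 with vehicle, and from 0.220 to 3.00 and from 2.07 to 4.51 CPM in naive. Its values were -1.02 (SE 0.69, adjusted p 0.304) and -1.29 (SE 0.75, adjusted p 0.258), the latter -2.05 without naive AP20187 5. Oprl1 (ENSMUSG00000027584, chromosome 2, 181356809 to 181362778) encodes the nociceptin receptor. It ranged from 1.38 to 11.5 CPM in DMM with AP20187 and from 6.19 to 19.8 with vehicle, and from 3.06 to 11.3 and from 9.92 to 18.9 CPM in naive. Its values were -0.96 (SE 0.47, adjusted p 0.146) and -0.93 (SE 0.50, adjusted p 0.228). Against DMM vehicle 63 and 64 alone, the DMM values were 0.047 for Oprk1 and 0.15 for Oprl1. In all 4 receptor genes DMM AP20187 58 was the lowest library of its group and naive AP20187 3 the lowest of its group.

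Cnr1 (ENSMUSG00000044288, chromosome 4, 33924593 to 33948831) encodes CB1, the receptor at which cannabinoids act on neurons. Its CPM were 2.95, 9.46, 10.3, 25.4 and 16.2 in DMM AP20187 58 to 62. They were 40.3, 44.0, 37.2, 17.8 and 10.8 in DMM vehicle 32, 33, 34, 63 and 64. DMM vehicle 32, 33 and 34 were above every AP20187 library, and 63 and 64 were not. The log2 fold change was -1.22 (SE 0.49, adjusted p 0.0734), and against DMM vehicle 63 and 64 alone -0.13. In naive, Cnr1 was at 19.6, 7.57, 26.2 and 34.1 CPM with AP20187 and at 32.2, 37.6, 18.4, 32.8 and 45.9 CPM with vehicle, a value of -0.61 (SE 0.51, adjusted p 0.438). The ranges overlapped widely. Oprm1, Oprd1 and Cnr1 passed in DMM with DESeq2 (adjusted p 0.0483, 0.0263 and 0.0404) and without DMM vehicle 64 (0.0375, 0.0294 and 0.0266), so that 6 of the 10 genes passed under each of these settings. Cnr1 also passed without DMM AP20187 61 (-1.63, adjusted p 0.0225). The number of all genes that passed rose as well, from 5410 to 6945 with DESeq2, to 6368 without DMM AP20187 61 and to 7677 without DMM vehicle 64.

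Neither peptide precursor gene passed. Penk (ENSMUSG00000045573, chromosome 4, 4133531 to 4138819) encodes proenkephalin, the source of the enkephalins. The DMM AP20187 libraries 58 to 62 held 28.7, 13.3, 33.8, 26.1 and 17.1 CPM of it. DMM vehicle 32, 33, 34, 63 and 64 held 13.4, 11.6, 11.7, 22.6 and 30.3 CPM. DMM vehicle 64 had the highest value of its group and the ranges overlapped. Its log2 fold change was 0.41 (SE 0.43, adjusted p 0.529). In naive it was 0.35 (SE 0.45, adjusted p 0.624), with 14.1, 29.0, 32.5 and 10.8 CPM against 8.26, 9.82, 27.4, 30.5 and 8.95 CPM. Within naive vehicle, samples 3 and 4 were about as high as the highest AP20187 libraries and the other three were low. Pdyn (ENSMUSG00000027400, chromosome 2, 129528485 to 129541753) encodes prodynorphin, the source of the dynorphins, and was the least abundant in counts, with 0 to 60 counts per library. It ranged from 0.121 to 0.849 CPM in DMM with AP20187, from 0.170 to 0.906 in DMM with vehicle and from 0.293 to 0.808 in naive with vehicle. In naive with AP20187 it was at 0.156, 0.0675, 0 and 0.454 CPM. The 0 counts of naive AP20187 4 allow up to 0.0504 CPM, for counting error only. Its log2 fold changes were -0.14 (SE 0.78, adjusted p 0.918) in DMM and -1.56 (SE 0.87, adjusted p 0.239) in naive, where it was -2.77 without naive AP20187 5.

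Surgery was compared within each treatment. With vehicle, 0 of 10 genes differed between DMM and naive by edgeR, and 0% of all genes passed. None of the 10 had an unadjusted p under 0.05, which 1.66% of all genes had, and DESeq2 called 0 as well. With DMM vehicle restricted to 63 and 64, 541 of all genes and 0 of the 10 passed. The log2 fold changes ran from -0.29 for Oprd1 to 0.91 for Cnr2, with standard errors of 0.18 to 0.83. Without DMM vehicle 64 the Cnr2 value was 0.24. With AP20187, 0 of 10 differed by edgeR and 0 by DESeq2, where 0.702% of all genes passed by edgeR (160 genes, and 1109 by DESeq2). Mgll had the only unadjusted p under 0.05 among them (0.0164, adjusted p 0.199; 16.7% of all genes had one), at a log2 fold change of -0.51. The interaction of surgery and AP20187 passed in 0 of 10 genes by edgeR, with unadjusted p under 0.05 in 0 (7.67% of all genes), and in 0 by DESeq2, which called 224 of all genes against 26 by edgeR. The values ran from -0.87 for Oprd1 to 1.42 for Pdyn. With 1 library left out these 2 values ran from -1.55 to -0.15 for Oprd1 (without DMM AP20187 61 and naive AP20187 4) and from 1.01 to 2.61 for Pdyn (without naive AP20187 4 and 5). Comparisons that share a group are not independent of each other.

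Levels of different genes were compared in the authors' FPKM, which scale for gene length. In naive with vehicle the order was Mgll (13.2 ± 1.94 FPKM), Penk (10.2 ± 6.72), Cnr1 (5.04 ± 1.46), Oprl1 (3.94 ± 0.907), Oprd1 (2.25 ± 1.17), Faah (1.59 ± 0.506), Cnr2 (1.00 ± 0.590), Oprm1 (0.897 ± 0.560), Oprk1 (0.350 ± 0.104) and Pdyn (0.167 ± 0.0669; SD, n = 5 each). Ranges of all neighbours in that order overlapped. In DMM with vehicle, Mgll (12.1 ± 0.816) and Penk (11.03 ± 5.50) again led, and the lowest Penk library was above the highest of Cnr1 (4.59 ± 2.19). In DMM with AP20187, Penk (14.3 ± 5.58) came before Mgll (6.60 ± 1.87), and Cnr2 at 5.31 ± 1.56 FPKM came next, before Cnr1 at 1.91 ± 1.24 (n = 5 each), with overlap between all neighbours. Cnr2 had rank 5 of 10 in DMM with vehicle (1.96 ± 1.84) and rank 3 in DMM with AP20187, and in naive it had rank 7 with vehicle and rank 4 with AP20187. Without DMM vehicle 64 its mean in DMM with vehicle was 1.19 ± 0.706 (n = 4), rank 7. In naive with AP20187 (n = 4) Penk (11.3 ± 5.53) and Mgll (8.42 ± 2.22) were followed by Cnr1 (2.98 ± 1.67) and Cnr2 (2.52 ± 0.846). The order of the 4 groups was the same by CPM and by FPKM for 9 of the 10 genes, Oprk1 being the exception.

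The receptor genes of neurons had similar profiles across the 19 libraries. Log2 CPM of Oprm1, Oprd1, Oprk1, Oprl1 and Cnr1 correlated with each other at Pearson r of 0.85 to 0.94 over the 10 pairs, and at 0.77 to 0.93 after each group's mean was subtracted. Faah correlated with these 5 genes at 0.75 to 0.89 and Mgll at 0.67 to 0.80. Cnr2 correlated with them at -0.77 to -0.66, Penk at -0.59 to -0.42 and Pdyn at 0.27 to 0.49. Cnr2 and Penk had an r of 0.63 with each other, and 0.60 after group means were subtracted. These r describe 19 libraries that share treatments.

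The same genes moved with markers of neurons. Oprm1, Oprd1, Oprk1, Oprl1, Cnr1, Faah and Mgll correlated with the pan-neuronal score at r of 0.84 to 0.96 and with the nociceptor score at 0.82 to 0.96 (n = 19). The pan-neuronal score differed by -1.42 with AP20187 in DMM, where 9 of its 12 genes fell, and by -0.86 in naive, where 0 of 12 passed. The summed level of its genes ranged from 2270 to 8939 CPM in DMM with AP20187 and from 6474 to 18024 with vehicle, and from 3007 to 14896 and from 9645 to 20761 CPM in naive. The nociceptor score differed by -1.56 in DMM, with 7 of 13 genes lower, and by -1.20 in naive, with 0 of 13. Its genes summed to 989 to 2675 CPM in DMM with AP20187 and 2310 to 5754 with vehicle, and to 1004 to 3110 and 3477 to 5630 CPM in naive. The large-fibre neuron score had r of 0.67 to 0.88 with the same 7 members. It differed by -0.74 in DMM, with 3 of 8 genes lower, but by 0.06 in naive, with 1 of 8 higher and 0 lower. Glial markers were lower in DMM too, at 4 of 8 satellite glia and 3 of 8 myelinating Schwann cell genes, against 1 and 0 in naive. The r of the 7 members was 0.49 to 0.65 with the satellite glia score and 0.16 to 0.46 with the Schwann cell score. After group means were subtracted it was 0.66 to 0.94 with the pan-neuronal, 0.57 to 0.95 with the nociceptor, 0.60 to 0.93 with the large-fibre and -0.08 to 0.44 with the satellite glia score, and with the Schwann cell score none was above 0. With the macrophage score the 7 members had r of -0.84 to -0.74. With the neutrophil score they had -0.82 to -0.72, and with the fibroblast score -0.77 to -0.57. After group means were subtracted these ranges were -0.83 to -0.61, -0.65 to -0.33 and -0.77 to -0.58. The part of these markers in the values of the members was not tested.

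With the pan-neuronal score of the same library subtracted, the mean log2 difference with AP20187 in DMM was -0.18 for Oprm1, -0.52 for Oprd1, 0.08 for Oprk1, 0.32 for Oprl1 and 0.07 for Cnr1. It was 0.41 for Faah and 0.54 for Mgll, against unsubtracted differences of -1.01 and -0.88. The score itself differed by -1.42 in DMM and by -0.86 in naive. Its subtraction raised the difference of every gene by that amount, so that any smaller fall changed sign. The subtracted difference in DMM was 1.86 for Penk, 1.32 for Pdyn and 3.34 for Cnr2, and the ranges of the 2 groups overlapped for every member. In naive it was -1.4996 for Oprm1, -0.77 for Oprd1, -1.07 for Oprk1, -0.18 for Oprl1, 0.12 for Cnr1 and -1.11 for Pdyn. The other naive values were 0.20 for Faah, 0.37 for Mgll, 1.30 for Penk and 2.51 for Cnr2, and the ranges overlapped for every member there too. With the nociceptor score subtracted instead, Mgll (0.71) and Cnr2 (2.84) were higher in every naive AP20187 library than in every vehicle library, as were 31.6% of all genes tested. These differences are descriptions without a test.

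**Figure D3:**
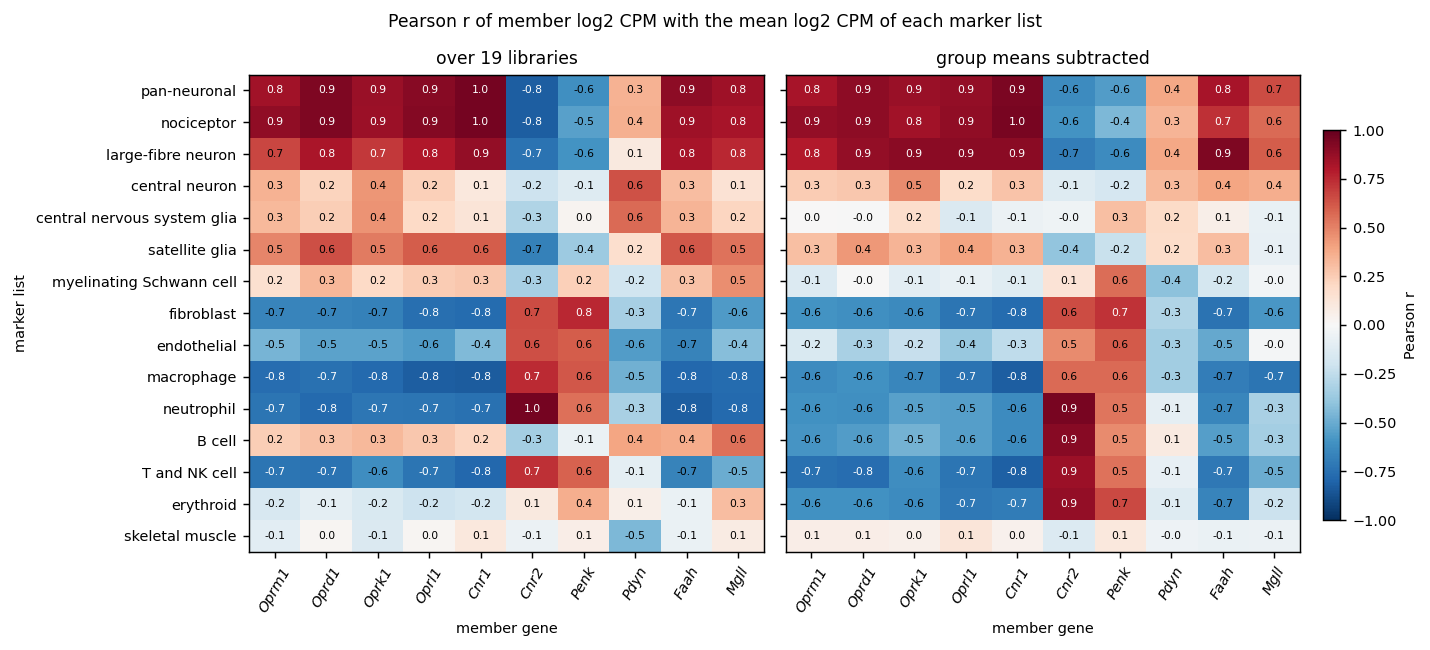
Pearson r between log2 CPM of each gene (columns) and the mean log2 CPM of 15 marker lists (rows), over 19 libraries (left) and after subtraction of group means (right); red is positive and blue negative. Receptors, Faah and Mgll are red with the neuronal lists (0.84 to 0.96 for pan-neuronal on the left), Cnr2 is most red with the neutrophil list (0.96) and Penk with the fibroblast list (0.76).

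Cnr2 moved with leukocyte markers. Its r with the neutrophil score was 0.96, and 0.95 after group means were subtracted (n = 19). Of the 10 neutrophil genes, 7 rose with AP20187 in DMM and 8 in naive, and none was at 0 in any library. They summed to 16450 to 28291 CPM in DMM with AP20187 against 385 to 7694 with vehicle, and to 7897 to 27134 against 811 to 2204 CPM in naive. The upper end in DMM vehicle, 7694 CPM, was DMM vehicle 64, the vehicle library with the highest Cnr2. The r of Cnr2 with the B cell score was -0.34 over all libraries and 0.91 after group means were subtracted. In the same order it was 0.73 and 0.85 with the T and NK cell score. With the erythroid score, which is not a leukocyte list, it was 0.10 and 0.88. Of 8 B cell genes, 7 fell with AP20187 in each of DMM and naive, and they summed to 2.67 to 8.96 against 10.9 to 155 CPM in DMM and 2.97 to 6.35 against 23.5 to 68.4 CPM in naive. Among them Igll1 was at 0 in 9 libraries, Vpreb1 in 5 and Vpreb3 in 3. With the macrophage score, Cnr2 had an r of 0.74, and those 10 genes summed to 247 to 1044 against 171 to 648 CPM in DMM and 478 to 807 against 92.1 to 507 CPM in naive. The part of these cells in the Cnr2 values was not tested.

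Penk moved with connective tissue markers, at r of 0.76 with the fibroblast score and 0.72 after group means were subtracted. In the same order its r was 0.62 and 0.57 with the macrophage score and 0.60 and 0.61 with the endothelial score. With the erythroid score it was 0.36 and 0.66, and with the Schwann cell score 0.24 and 0.56. None of the 6 fibroblast genes passed in DMM or naive with AP20187, none was at 0, and they summed to 1768 to 6310 against 1247 to 6941 CPM in DMM and 2961 to 5860 against 862 to 4358 CPM in naive. Over the 19 libraries Pdyn had its highest r with the central neuron score (0.64) and with central nervous system glia (0.57). After group means were subtracted these were 0.32 and 0.19. The large-fibre neuron (0.39), pan-neuronal (0.39) and nociceptor (0.34) scores were then above both. Of the 15 central neuron genes, 7 fell with AP20187 in naive and 0 in DMM. Their score lay at -1.39 to -0.51 in naive with AP20187, below the 0.41 to 0.85 of the 15 other libraries, while their genes summed to 49.3 to 99.6 CPM there and to 44.8 to 108 CPM in naive with vehicle, so that the sums overlapped. Zic1 was the most abundant gene of the list (a mean of 55.6 CPM against 35.9). The other 14 genes summed to 10.4 to 28.8 CPM with AP20187 and 27.1 to 33.0 CPM with vehicle. Slc6a5 and Gabra6 of that list were each at 0 in 4 libraries and had a mean of 0 in naive with AP20187. The part of these markers in the Penk and Pdyn values was not tested.

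**Figure D4:**
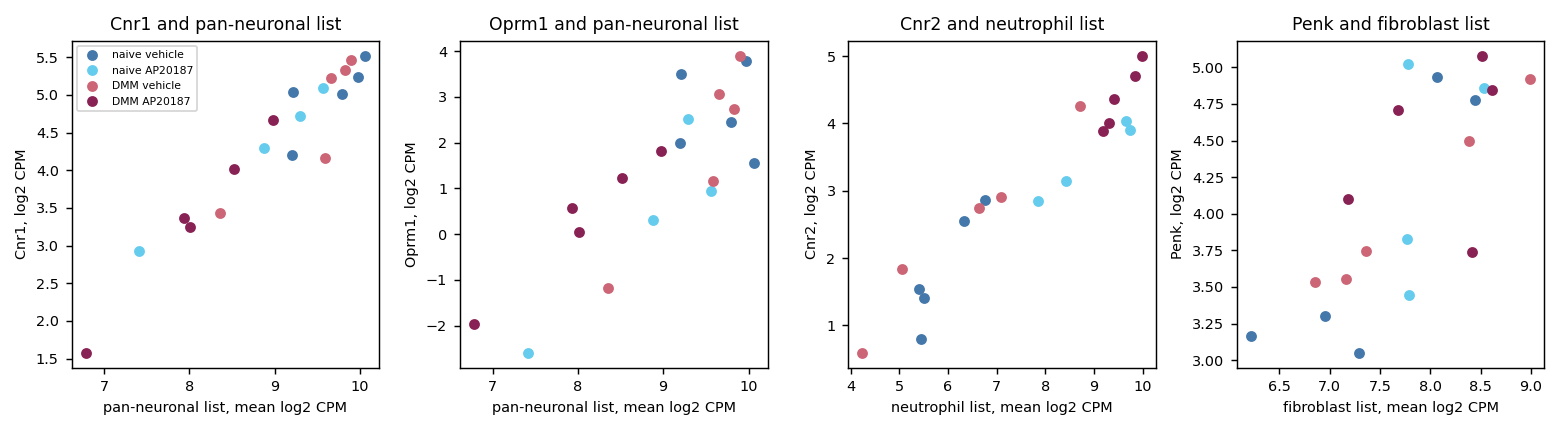
Log2 CPM of 4 genes against marker list scores (mean log2 CPM); each point is 1 of 19 libraries, coloured by group. Cnr1 and Oprm1 follow the pan-neuronal score, Cnr2 follows the neutrophil score (r 0.96) with DMM vehicle 64 at 8.72 near the AP20187 libraries, and Penk follows the fibroblast score more loosely (r 0.76).

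The genes with the most similar profiles were searched among 16800 tested genes with a settled symbol, by Pearson r of log2 CPM over 19 libraries. Cnr1 was nearest to Rgs7bp, Elfn1 and Lhfpl4 (0.99 each) and Cnr2 to Myo1g, Syk and Akna (0.99 each). Oprl1 was nearest to the sodium channel gene Scn1a (0.98), Oprm1 to Plcxd3 (0.98), Oprd1 to Fstl1 (0.97) and Oprk1 to Cntnap5b (0.97). Faah was nearest to Glb1l2 (0.96) and Mgll to Psap (0.96), the prosaposin gene. Penk was nearest to the collagen gene Col8a2 (0.95), then Mrc2 (0.93) and Col6a2 (0.92). Pdyn was nearest to Slc6a11, a GABA transporter gene, at only 0.82. After subtraction of group means Rgs7bp (0.99) remained nearest to Cnr1, Scn1a (0.98) to Oprl1 and Syk (0.99) came nearest to Cnr2.

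The other genes of these systems were taken as 54 genes in 7 lists, all of which passed the filter. With AP20187 in DMM, 23 of 54 passed, 4 higher and 19 lower, where 23.8% of all genes passed (11.3% higher and 12.4% lower). Their median log2 fold change was -0.74, against -0.10 for all genes. In naive 6 of 54 passed, 5 higher and 1 lower, a share near the 11.2% of all genes, with a median of -0.48 against -0.07. None passed between DMM and naive with either treatment or in the interaction. Against DMM vehicle 63 and 64 alone 4 passed in DMM, and in fits that left out 1 library 12 to 33 did, the fewest without DMM vehicle 33 and the most without DMM vehicle 64. The split into higher and lower in naive changed with the setting, as given below.

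Arrb2, Grk6, Gnai2 and Gnai3 rose in both DMM and naive. Arrb2, which encodes beta-arrestin 2, an adaptor that desensitizes and internalizes receptors, rose by 1.86 on the log2 scale in DMM (SE 0.33, adjusted p 0.00111) and by 1.90 in naive (SE 0.34, adjusted p 0.00239). Grk6, a kinase that phosphorylates active receptors, rose by 1.53 (SE 0.20, adjusted p 0.000126) and 0.94 (SE 0.21, adjusted p 0.00855). The inhibitory G protein alpha subunits Gnai2 (0.99 and 1.00) and Gnai3 (1.08 and 0.62) rose too, and in DMM these were singled out after their values were seen. In naive the aminopeptidase gene Anpep, whose product cuts enkephalins, was also higher (1.501, SE 0.44, adjusted p 0.0366).

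Of the 19 genes that fell in DMM, the 6 with the largest changes are given here. Gnao1, the Go alpha subunit abundant in neurons, fell by 1.66 on the log2 scale (SE 0.48, adjusted p 0.0203), and Gnaz, another inhibitory alpha subunit, fell by 1.30 (SE 0.42, adjusted p 0.0336). Kcnj3, a subunit of the potassium channel opened by these receptors, fell by 1.58 (SE 0.51, adjusted p 0.0316). Rgs4, which speeds the shut-off of Gi/o signals, fell by 1.52 (SE 0.37, adjusted p 0.00793). Trpv1, the capsaicin receptor at which anandamide also acts, fell by 1.70 (SE 0.48, adjusted p 0.0181) and is itself 1 of the 13 nociceptor markers. Pcsk1n, an inhibitor of a prohormone convertase, fell by 1.37 (SE 0.34, adjusted p 0.00892). In naive the only gene that fell in the edgeR comparison as reported was Kcnj9, a further potassium channel subunit (-1.59, SE 0.34, adjusted p 0.00739). Its value in DMM was -0.42 (adjusted p 0.349). With DESeq2, which called 4356 of all genes in naive, 6 of the 54 fell there.

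By list in DMM, where 12.4% of all genes fell and 11.3% rose, 2 of 7 precursor and processing genes, 2 of 6 opioid peptidases, 2 of 6 endocannabinoid synthesis genes and 2 of 5 further breakdown and carriage genes fell, and none rose. Of 4 other lipid receptors 1 fell. Of 12 receptor partners 4 fell and 2 rose, and of 14 Gi/o proteins and effectors 6 fell and 2 rose. The pan-neuronal and neutrophil scores given above moved with these groups as well, and their part in the list values was not tested.

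**Figure D5:**
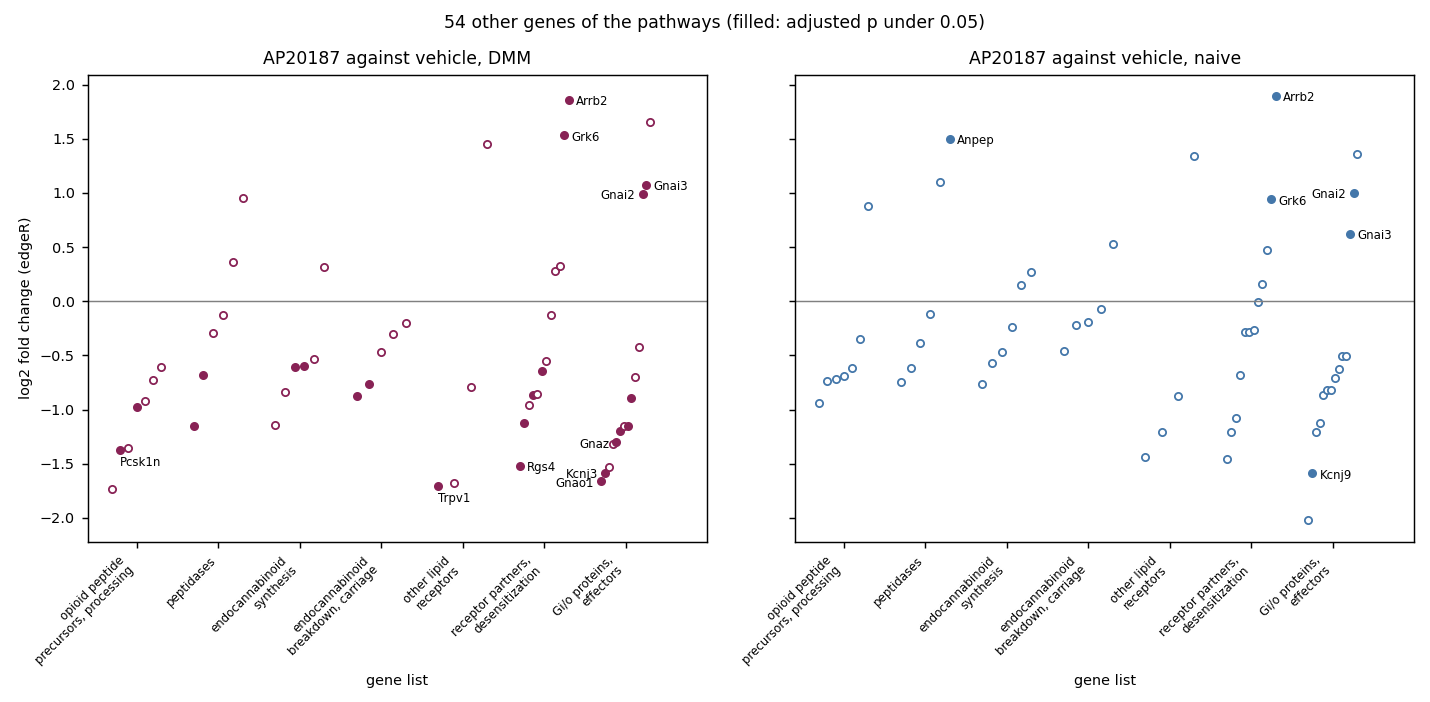
Log2 fold change (edgeR, vertical axis) with AP20187 against vehicle of 54 further genes in 7 lists, in DMM (left) and naive (right); filled points have an adjusted p under 0.05. In DMM 19 filled points lie below 0 and 4 above, and in naive 1 lies below (Kcnj9) and 5 above.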

How the data were processed

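Bulk RNA was sequenced from pooled L3 to L5 dorsal root ganglia in 19 libraries of 4 groups. Per the submitters' processing notes, cutadapt, HISAT2, StringTie and the build GRCm39 were used, with versions and strand settings of the counting not given in the sources used here. The table deposited by the authors holds raw whole-number counts and, per gene and library, FPKM, in which the fragment number is divided by library size and gene length. A further deposited table of counts held the same counts for all 10 members, and the library totals were equal in 18 of 19 libraries. Reads carry no molecular identifiers and are not independent, so floors (3 counts) cover counting error only.

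The counts entered edgeR 4.0.16 under R 4.3.3 (quasi-likelihood F test, TMM, filterByExpr with a minimum count of 10, 1 model of the 4 groups, 15 residual degrees of freedom) in 5 contrasts, all two-sided. Adjusted p are Benjamini-Hochberg values over the 22778 genes tested, and 0.05 was the threshold. Log2 CPM for scores and correlations used a prior count of 2. Libraries were compared for identical values, and 0 pairs were identical.

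The members, the 7 lists of further genes and the 15 marker lists were chosen with earlier results of these data known. Named genes are all members, at most 8 further genes a contrast by size among those that passed, and, from the 3 nearest profiles of each member, at least the nearest. Gnai2 and Gnai3 in DMM were added after their values were seen. Alternatives were RLE factors, no TMM, no filter, DESeq2 1.42.0, limma 3.58.1 on log2(FPKM + 1) and log2(FPKM + 0.1), only the groups compared, DMM vehicle libraries by number series, a replicate block and each library left out. The values of 1 marker gene are not reported here.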

Additional observations from a re-analysis of the deposited data

How the results depend on the processing

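With vehicle restricted to DMM 63 and 64, 0 of the 10 genes passed with AP20187 in DMM, and with vehicle restricted to 32 to 34, 7 did (1 higher and 6 lower). That first setting leaves 2 vehicle libraries, and the number of all genes that passed was 1156, against 8450 with 32 to 34 and 5410 in the full group. DESeq2 called 6 of the 10 genes in DMM, and 6945 of all genes. Cnr2 in DMM did not pass without TMM (adjusted p 0.0530), without the filter on low counts (0.0643) or in a fit of only the groups compared (0.0641). With 1 library left out, 1 to 6 of the 10 genes passed in DMM: 1 where the library left out was DMM AP20187 58, 59 or 60, or was DMM vehicle 32, 33 or 34 (3212 to 3933 of all genes), 2 without DMM AP20187 62 or DMM vehicle 63 (3914 and 4740), 5 without DMM AP20187 61 (6368) and 6 without DMM vehicle 64 (7677). In naive, 1 of the 10 passed with DESeq2 and in a fit of only the groups compared (Cnr2 in both), and 1 with limma on log2(FPKM + 1) or log2(FPKM + 0.1) (Mgll in both). Of all genes, 4356, 2693, 4147 and 4225 passed under these settings in that order, and 994 to 3449 with 1 library left out, against 2548 in the comparison as reported. With 1 library left out, 0 to 1 of the 10 did (Cnr2 without naive AP20187 5 or naive vehicle 4, adjusted p 0.0473 and 0.0426).

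Of the 54 further genes, 4 passed in DMM against 63 and 64 alone, and 12 to 33 with 1 library left out. In naive 13 passed with DESeq2 (7 higher and 6 lower) and 14 with either form of limma on FPKM (4 higher and 10 lower). Without TMM 9 did (4 higher and 5 lower, and 2465 of all genes). In a fit of only the groups compared 8 did (4 higher and 4 lower). With 1 library left out 4 to 11 passed, the most without naive AP20187 5 (6 higher and 5 lower). Unless stated, the counts of all genes are those just given. Between DMM and naive with AP20187 it was 1 without TMM, 4 with DESeq2, 2 with log2(FPKM + 1), 3 with log2(FPKM + 0.1), and 0 to 1 with 1 library left out. Of all genes, 234, 1109, 1220, 1011 and, with 1 library left out, 43 to 269 passed there, against 160 as reported. On log2(FPKM + 0.1) the median of all genes in naive with AP20187 was -0.21, against -0.07 by edgeR. The cause of these changes was not tested.

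The sign changes below all concern values that did not pass. Against DMM vehicle 63 and 64 alone, the sign changed for Oprm1 (0.42), Oprk1 (0.047), Oprl1 (0.15) and Penk (-0.13) with AP20187 in DMM, for Pdyn (0.14) and Faah (-0.41) between DMM and naive with vehicle, for Oprm1 (2.14), Oprd1 (0.56), Oprl1 (1.07), Penk (-0.53), Cnr1 (0.47) and Faah (0.035) in the interaction. Against DMM vehicle 32 to 34 alone, the sign changed for Pdyn (0.030) with AP20187 in DMM, for Oprm1 (0.42), Oprd1 (0.21), Oprk1 (0.16), Oprl1 (0.30), Penk (-0.47), Cnr1 (0.28) and Cnr2 (-0.057) between DMM and naive with vehicle, for Oprk1 (-0.17) and Cnr2 (0.95) in the interaction. With RLE factors, the sign changed for Oprk1 (0.035) between DMM and naive with AP20187, and for Oprl1 (0.014) in the interaction. Without TMM, the sign changed for Oprk1 (0.013) between DMM and naive with AP20187. With DESeq2, the sign changed for Oprk1 (0.036) between DMM and naive with AP20187, and for Oprl1 (0.014) in the interaction. With limma on log2(FPKM + 1), the sign changed for Oprk1 (0.010) between DMM and naive with AP20187, and for Oprm1 (0.081), Oprl1 (0.11) and Cnr2 (0.42) in the interaction. With limma on log2(FPKM + 0.1), the sign changed for Oprk1 (0.12) between DMM and naive with AP20187, and for Oprm1 (0.41), Oprl1 (0.096) and Cnr2 (0.43) in the interaction. With 1 library left out, values ran across 0 for Pdyn (-0.52 to 0.20) with AP20187 in DMM, for Oprm1 (-0.76 to 0.14), Oprd1 (-0.61 to 0.083), Oprl1 (-0.31 to 0.041), Penk (-0.20 to 0.40), Pdyn (-0.40 to 0.18), Cnr1 (-0.33 to 0.062) and Faah (-0.15 to 0.15) between DMM and naive with vehicle. They also did for Oprm1 (-0.85 to 0.65), Oprk1 (-0.45 to 0.69), Oprl1 (-0.48 to 0.093) and Penk (-0.093 to 0.40) between DMM and naive with AP20187, and for Oprm1 (-0.65 to 0.85), Oprk1 (-0.18 to 0.97), Oprl1 (-0.31 to 0.24), Penk (-0.26 to 0.34) and Cnr2 (-0.34 to 0.65) in the interaction. Of the 980 alternative values of single members, 838 kept both their direction and their side of the threshold. Most of the 980 belong to values that did not pass as reported, so that number says little about the 3 calls. Of the others, 104 changed sign and 18 came to pass. The remaining 20 lost a call, and all of these concern the 3 calls.

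Replicate numbers are shared by the naive groups, for 4 numbers. Libraries with the same number did not deviate together throughout (r of 0.02, 0.30, -0.08 and 0.18 for numbers 1, 3, 4 and 5), and not every library correlated best with its own number. They were therefore taken to share only a number. With the number as a replicate block, 0 of the 10 genes and 4 of the 54 further genes passed in naive, and 1209 of all genes against 2548 without the block. Counts were lowest for Pdyn (0 to 60 per library), and Oprk1 and Oprm1 each came down to 8 counts in 1 library; the limit that depth sets was not tested.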
